A study of Homo sapiens with 9 samples.

Results

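THBS1, VCAN, MAMDC2 and MCAM encode glycoproteins that lie in the extracellular matrix or bind cells to it, and all 4 had higher transcript levels in shH2A.X than in shCTRL cells. They were chosen for that rise on the arrays described here, from 14884 genes with a value, so their own values are given as a description with no test. They are read by 5 of the 53617 probe sets of the array, 1 each for THBS1, MAMDC2 and MCAM and 2 for VCAN. All 5 are shown, and for VCAN the probe set with the higher mean over the 9 arrays is the main one.

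RNA of HCT116 cells, an established human colorectal carcinoma line of epithelial growth, was measured on Affymetrix Human Gene 2.0 ST arrays, 1 for each RNA sample. The shH2A.X cells (5 arrays) had been infected with a pLKO.1 lentivirus carrying a hairpin against the gene of the histone variant H2A.X, and the shCTRL cells (4 arrays) with a virus carrying a scrambled hairpin. The methods describe puromycin selection for several weeks to obtain knocked-down and control lines, but neither they nor the labels say at what time after infection or selection the cells of the arrays were taken. Cells of both groups were grown in serum-containing medium. The comparison asked which transcripts differed when H2A.X was depleted. The methods describe 5 arrays in each group, whereas the labels give 4 of shCTRL, and the 9 arrays of the labels were used. A figure caption of the paper calls the numbered arrays of each group independent replicates, but no source names separate infections or cultures behind them. Every p-value below therefore measures the spread between these arrays, which may be technical. No probe set is named here for H2A.X, and the extent of its silencing was therefore not measured on these arrays. The paper reports a lower H2A.X protein level in shH2A.X cells by immunoblot.

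Thrombospondin 1, encoded by THBS1, is a secreted trimer of the matricellular class. It binds receptors such as CD36 and CD47 and can release TGF-β from its latent form. Versican, encoded by VCAN, is a large chondroitin sulphate proteoglycan of the hyalectan family, which binds hyaluronan and is cleaved by ADAMTS proteases. MAMDC2 is a secreted protein built of MAM domains, folds that occur in many adhesion proteins. MCAM, also called CD146 or MUC18, is a transmembrane adhesion molecule of the immunoglobulin superfamily that is best known from melanoma and endothelium and binds laminins.

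The promoter of each gene is shown because the 4 genes moved together and the sequence played no part in their choice. Each window holds 250 bases before and 50 bases after the start of the gene in RefSeq, assembly GRCh38.p14, read 5′ to 3′ on the strand of the gene. These are chr15:39580829-39581128 on the plus strand for THBS1, chr5:83471494-83471793 on the plus strand for VCAN, chr9:70043331-70043630 on the plus strand for MAMDC2 and chr11:119317081-119317380 on the minus strand for MCAM. Capitals mark CACCTG, the E-box that zinc finger factors such as Slug and ZEB1 bind, and GGAATG, the element of TEAD factors, on either strand (read as CAGGTG and CATTCC on the other one).
THBS1: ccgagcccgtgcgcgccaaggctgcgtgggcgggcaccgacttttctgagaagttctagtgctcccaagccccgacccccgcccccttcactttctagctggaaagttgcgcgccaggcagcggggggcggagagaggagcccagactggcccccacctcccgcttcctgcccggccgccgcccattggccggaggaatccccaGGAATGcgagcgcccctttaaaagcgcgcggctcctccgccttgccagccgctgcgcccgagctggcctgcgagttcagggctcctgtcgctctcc
VCAN: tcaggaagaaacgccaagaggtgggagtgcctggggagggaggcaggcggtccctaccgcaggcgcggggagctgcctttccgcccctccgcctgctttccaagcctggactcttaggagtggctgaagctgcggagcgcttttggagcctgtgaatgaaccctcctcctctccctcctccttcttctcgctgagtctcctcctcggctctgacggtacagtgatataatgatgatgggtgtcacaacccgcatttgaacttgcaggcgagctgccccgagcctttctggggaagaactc
MAMDC2: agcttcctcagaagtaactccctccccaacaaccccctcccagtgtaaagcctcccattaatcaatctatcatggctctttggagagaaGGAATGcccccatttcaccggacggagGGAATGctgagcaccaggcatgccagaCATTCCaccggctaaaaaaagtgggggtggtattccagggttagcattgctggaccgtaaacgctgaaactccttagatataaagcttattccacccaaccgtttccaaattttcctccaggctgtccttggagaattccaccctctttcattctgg
MCAM: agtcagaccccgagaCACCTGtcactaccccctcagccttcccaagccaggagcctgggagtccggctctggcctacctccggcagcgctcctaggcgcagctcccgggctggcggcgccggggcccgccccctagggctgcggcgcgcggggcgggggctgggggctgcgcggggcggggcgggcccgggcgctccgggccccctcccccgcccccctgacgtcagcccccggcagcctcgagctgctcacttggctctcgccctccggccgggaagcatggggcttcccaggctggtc

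The 4 windows differed in these letters. MCAM held the only CACCTG, 235 bases before its start, whereas 20.6% of all 35116 RefSeq promoter windows of this length hold at least 1. THBS1 held a single GGAATG, 46 bases before its start, and MAMDC2 held 3, at 161, 134 and 107 bases before its start. At least 1 GGAATG is found in 14% of all windows, and at least 3 in 0.125% (44 windows). The share for at least 3 was computed for this motif alone, with the cutoff equal to the count found in MAMDC2. It is therefore a description and no measure of rarity among the motifs searched. VCAN had neither motif in this window. GGGCGG, a site of Sp1-like factors that occurs in 45% of all windows, was found 4 times in THBS1, 5 times in MCAM and 1 time in VCAN, counted on both strands. The MAMDC2 window at the start of the gene held none, but a second RefSeq window of that gene, centred further downstream at chr9:70043598-70043897, held 2 and no CACCTG or GGAATG. The TATA box TATAAA occurred only in MAMDC2, 29 bases before its start, against 11.5% of all windows. The E-box CACGTG (7.26% of windows), the AP-1 element TGANTCA (7.71%) and the CArG box of serum response factor (1.29%) were searched in the same way and had no match in any of the 4 windows at the gene starts. A GC content of 70.0% was computed for the THBS1 window, 60.3% for VCAN, 49.7% for MAMDC2 and 78.0% for MCAM, against a median of 58.7% over all windows. These matches describe letters and were not tested as binding sites.

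THBS1 (gene identifier 7057, chr15:39581079-39599466, plus strand, GRCh38.p14) had log2 expression values of 10.04, 10.12, 10.09, 10.07 and 10.04 on shH2A.X arrays 1 to 5, against 7.19, 7.30, 6.96 and 7.26 on shCTRL arrays 1 to 4. The groups did not overlap, and the lowest shH2A.X value lay 2.74 above the highest shCTRL value. The means were 10.07 ± 0.03 in shH2A.X and 7.18 ± 0.15 in shCTRL cells (SD, n = 5 and 4), a log2 difference of 2.90 or 7.44-fold. The 5 shH2A.X values spanned 0.08 and the 4 shCTRL values 0.34, with shCTRL array 3 the lowest of all 9.

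MAMDC2 (gene identifier 256691, chr9:70043581-70226972, plus strand) gave 9.00, 8.95, 8.98, 8.98 and 8.95 on the shH2A.X arrays, against 6.35, 5.79, 5.85 and 6.12 on the shCTRL arrays. Here too the groups were apart, by 2.60 at the nearest values. The means of 8.97 ± 0.02 in shH2A.X and 6.03 ± 0.26 in shCTRL cells differed by 2.95, or 7.72-fold. The shH2A.X arrays lay within 0.05 of each other, whereas the shCTRL arrays spanned 0.57, and shCTRL arrays 1 and 4 were above shCTRL arrays 2 and 3.

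VCAN (gene identifier 1462, chr5:83471744-83582302, plus strand) read 9.08, 9.11, 9.15, 9.09 and 9.17 on the shH2A.X arrays and 6.96, 6.93, 7.02 and 7.12 on the shCTRL arrays by its main probe set. The groups lay apart by 1.96 at the nearest values. The means were 9.12 ± 0.04 in shH2A.X and 7.01 ± 0.08 in shCTRL cells, a log2 difference of 2.11 or 4.32-fold. The second VCAN probe set was dim, below the median of all probe sets on 7 of the 9 arrays, with 4.63, 4.19, 4.08, 4.43 and 4.67 on the shH2A.X arrays and 2.52, 2.74, 2.96 and 2.57 on the shCTRL arrays. It too showed no overlap, with a smaller difference of 1.70 (3.26-fold) between means of 4.40 ± 0.26 in shH2A.X and 2.70 ± 0.20 in shCTRL cells. Which strand it reads is not given in the sources used here. Of the 20 named probe sets numbered nearest to it, 14 belong to genes on the minus strand, 1 to a gene on the plus strand and 5 to genes with no strand given, whereas for the main VCAN probe set 16 belong to the plus strand and 1 to the minus strand.

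MCAM (gene identifier 4162, chr11:119308529-119317130, minus strand) had the smallest difference of the 4. Its values were 6.67, 6.76, 6.70, 6.57 and 6.68 on the shH2A.X arrays, against 5.46, 5.62, 5.73 and 5.55 on the shCTRL arrays. The groups were separated by 0.84, and the means of 6.68 ± 0.07 in shH2A.X and 5.59 ± 0.11 in shCTRL cells differed by 1.09, or 2.12-fold. The range within a group was 0.20 in shH2A.X and 0.27 in shCTRL cells.

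Ordered by their difference, MAMDC2, THBS1, VCAN and MCAM took places 5, 6, 13 and 100 among the rises of all genes, and 118 of the 14884 genes (0.793%) were higher by a log2 difference of at least 1. Separation of the groups is frequent on these arrays. Every shH2A.X array lay above every shCTRL array for 12.1% of all genes and below for 10.7%. Levels of different probe sets are not compared with each other, since probes differ in their affinity.

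**Figure D1:**
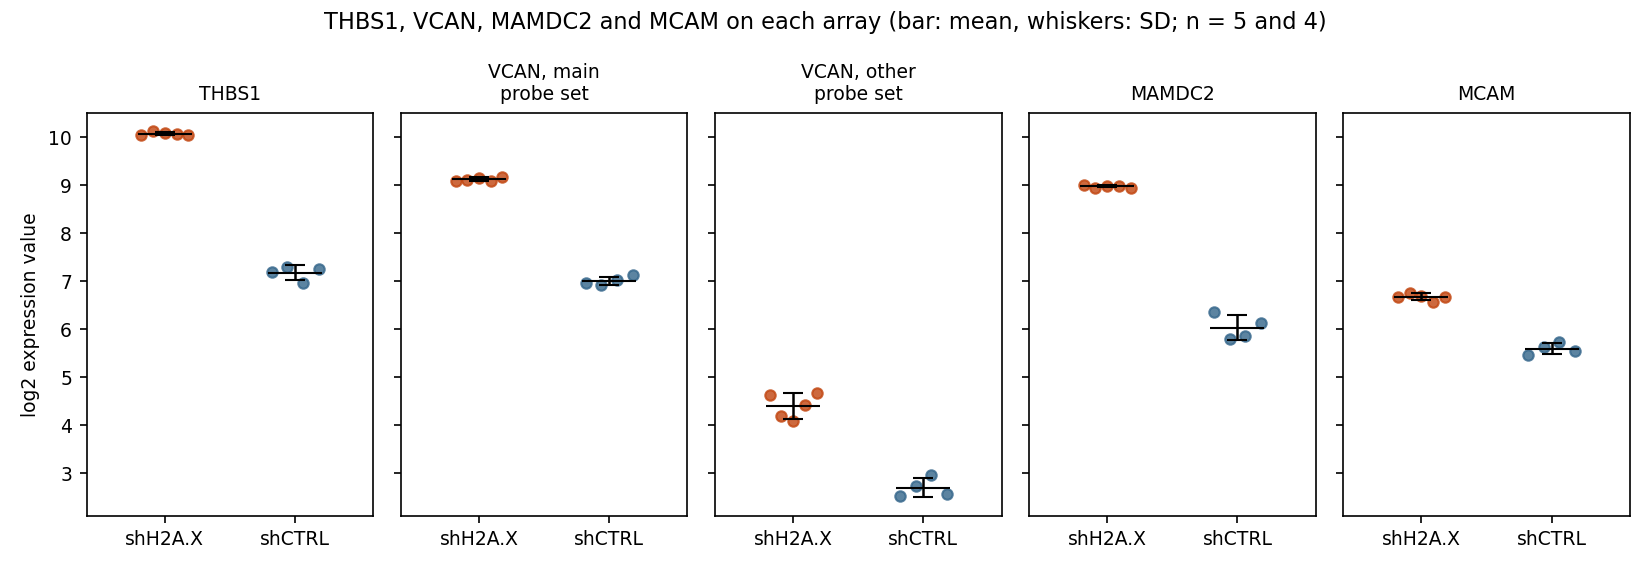
Log2 expression value (vertical axis) on each of the 5 shH2A.X and 4 shCTRL arrays for the probe sets of THBS1, VCAN, MAMDC2 and MCAM. Points are arrays, the horizontal bar is the mean and whiskers are the SD. In all 5 panels the shH2A.X points lie above the shCTRL points, by 2.74 at the nearest for THBS1 and by 0.84 for MCAM.

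Genes of the same families and pathways were then read from the limma fit over all 14884 genes, with the 4 genes themselves left out. In that fit 1813 genes rose (12.2%) and 1591 fell (10.7%) at an adjusted p under 0.05, and the median log2 fold change over all genes was 0.00. A set of 11 lists named 289 such relatives, receptors, ligands, enzymes and regulators, of which 188 had a value. Of these, 47 rose (25%), 17 fell (9.04%) and 124 did not pass, with a median of 0.06. The lists were written with earlier results of these data known, so the share is a description and was not set against other genes by a test.

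**Figure D2:**
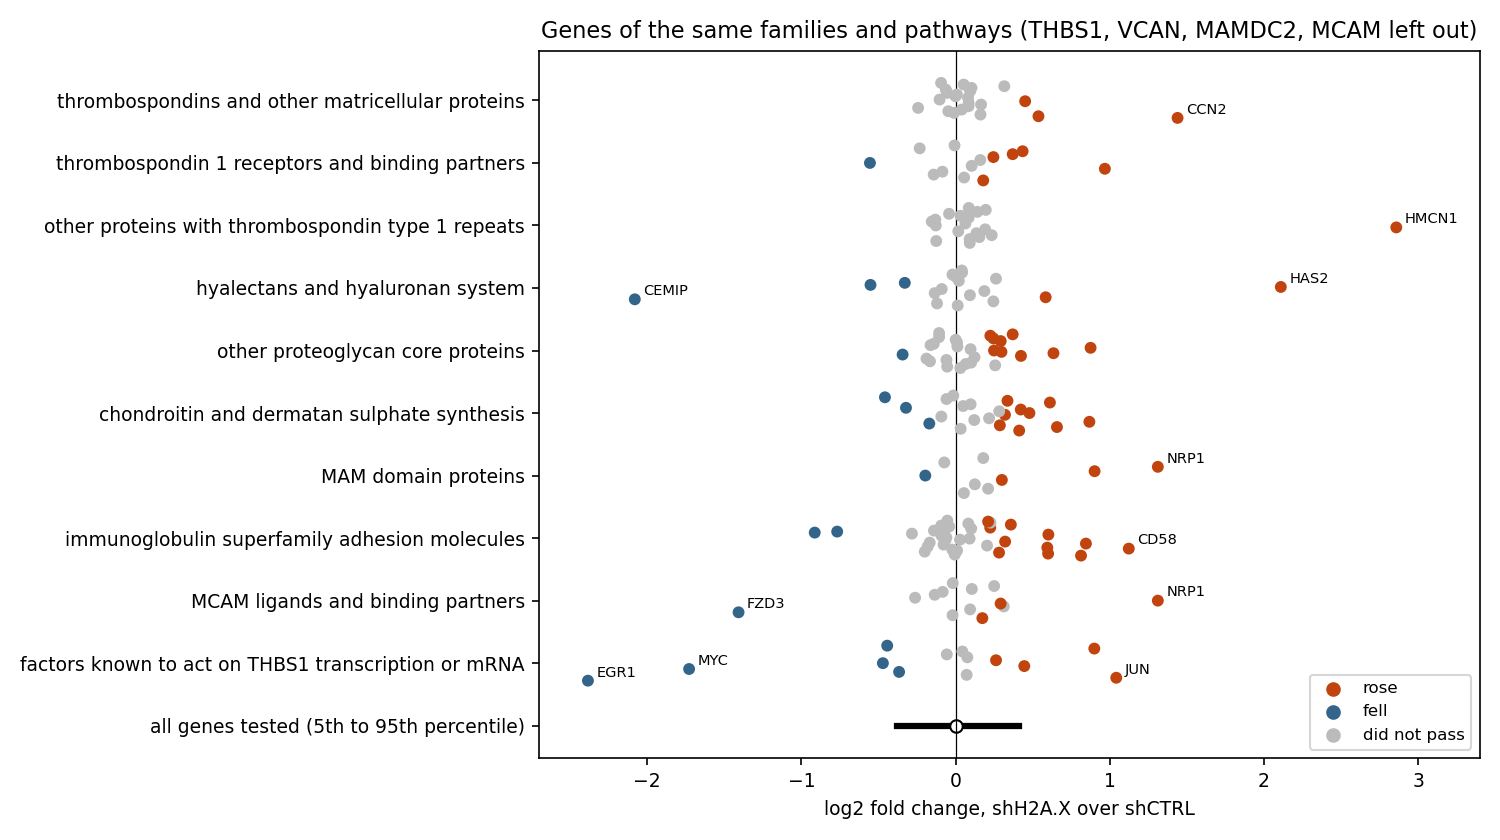
Log2 fold change of shH2A.X over shCTRL (horizontal axis) for the genes of each list that has measured members, with 1 point for each gene. Red points rose, blue points fell and grey points did not pass the limma test, and the lowest line gives the median (circle) and the range from the 5th to the 95th percentile of all genes tested. HMCN1 at 2.86 and HAS2 at 2.11 lie farthest to the right, and EGR1 at -2.39 and CEMIP at -2.08 farthest to the left.

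No other measured thrombospondin passed. THBS2 differed by 0.09, THBS3 by -0.06, THBS4 by 0.10 and COMP, the cartilage thrombospondin, by 0.04 on the log2 scale, and the groups overlapped for each of these genes (limma adjusted p = 0.583, 0.741, 0.416 and 0.732). THBS4 and, on 5 of the 9 arrays, THBS2 lay below the array medians. Of the 22 measured genes among 27 thrombospondins and other matricellular proteins, 3 rose and 19 did not pass, with a median of 0.07. The share that rose, 13.6%, lies near the 12.2% of all genes. At an unadjusted p under 0.05, 4 were higher and none lower.

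The 3 that rose were CCN2, CCN3 and FBLN5. CCN2, connective tissue growth factor, read 7.74, 7.73, 7.51, 7.62 and 7.36 on the shH2A.X arrays and 5.87, 6.66, 5.96 and 6.12 on the shCTRL arrays. The groups did not overlap although shCTRL array 2 was high, and the log2 fold change was 1.44 (SE 0.15, limma adjusted p = 3.18e-05). A second, dim CCN2 probe set gave 0.52. CCN3, a growth-restraining member of the same family, was higher by 0.54 (SE 0.08), and FBLN5, a fibulin needed for elastic fibres, by 0.45 (SE 0.06).

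Receptors and partners of thrombospondin 1 moved by smaller amounts. Of 25 listed genes 13 had a value, 5 of which rose (38.5%) and 1 fell (7.69%), with a median of 0.10. Without shH2A.X array 5 a second gene of this list fell. FN1, which encodes the matrix glycoprotein fibronectin, had 7.50 to 7.77 on the shH2A.X arrays (median 7.66) and 6.61 to 6.77 on the shCTRL arrays, a log2 fold change of 0.97 (SE 0.07, limma adjusted p = 2.03e-06). SIRPA, which shares the ligand CD47 with thrombospondin 1, was higher by 0.43 (SE 0.09, adjusted p = 0.00603), though its second probe set differed by only 0.13. SDC4, a heparan sulphate proteoglycan of focal adhesions, was higher by 0.37 (SE 0.05). The other genes that rose were SDC1 and CALR, the gene of calreticulin. LTBP1, which holds latent TGF-β in the matrix, was the 1 that fell, by 0.56 (SE 0.08, adjusted p = 0.000537). The 2 classical receptors did not pass. CD47 averaged 8.26 ± 0.07 in shH2A.X and 8.40 ± 0.11 in shCTRL cells (adjusted p = 0.168). CD36 was listed at 2.41 to 2.79 in shH2A.X and 2.40 to 2.62 in shCTRL cells, below the median of each array.

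Among 19 measured proteins of 31 that, like thrombospondin 1, carry thrombospondin type 1 repeats, only HMCN1 rose (5.26%) and 18 did not pass (median 0.09). HMCN1 encodes hemicentin 1, a very large matrix protein of immunoglobulin domains. It read 6.81, 6.80, 7.13, 6.67 and 6.94 on the shH2A.X arrays and 4.00, 4.07, 4.02 and 3.97 on the shCTRL arrays. The difference of 2.86 (SE 0.09, limma adjusted p = 2.99e-09) was close in size to that of THBS1, but the shCTRL values lay below the median of every shCTRL array, so that its size is uncertain. Without shCTRL array 2 a second gene of this list rose as well.

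Genes of the hyaluronan system were read beside VCAN. Of 23 listed genes of hyaluronan synthesis, binding and breakdown 18 had a value, of which 2 rose (11.1%), 3 fell (16.7%) and 13 did not pass, with a median of 0.02. These shares lie near the 12.2% and 10.7% of all genes, so the counts say nothing particular of the list. HAS2, a plasma membrane synthase of hyaluronan, read 6.80, 6.67, 6.81, 6.54 and 6.67 on the shH2A.X arrays and 4.61, 4.28, 4.94 and 4.52 on the shCTRL arrays. That is a log2 fold change of 2.11 (SE 0.11, limma adjusted p = 1.84e-07), and 2 of the 4 shCTRL values lay below the median of their arrays. HAS3, another synthase, went the opposite way, with 6.63 to 6.96 in shH2A.X against 7.22 to 7.54 in shCTRL cells (log2 fold change -0.55, SE 0.08, adjusted p = 0.000495).

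CEMIP, which binds hyaluronan and is needed for its breakdown outside the cell, had 5.10, 5.26, 5.39, 5.27 and 5.07 on the shH2A.X arrays and 7.34, 7.29, 7.22 and 7.36 on the shCTRL arrays. It fell by 2.08 on the log2 scale (SE 0.08, limma adjusted p = 8.73e-09), with no overlap between the groups. Its relative CEMIP2 rose by 0.58 (SE 0.07, adjusted p = 0.000180), and HMMR, a hyaluronan-binding protein of dividing cells, fell by 0.33 (SE 0.08).

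The main hyaluronan receptor, CD44, averaged 9.99 ± 0.14 in shH2A.X and 9.74 ± 0.13 in shCTRL cells. Its difference of 0.24 (SE 0.09) did not pass (limma adjusted p = 0.0639), and shCTRL array 3 at 9.89 lay among the shH2A.X values. Without that array the difference was 0.29 with an adjusted p of 0.0423. ACAN, which encodes aggrecan, another hyalectan, differed by 0.01 and the link protein gene HAPLN1 by 0.09, both below the median of every array.

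**Figure D3:**
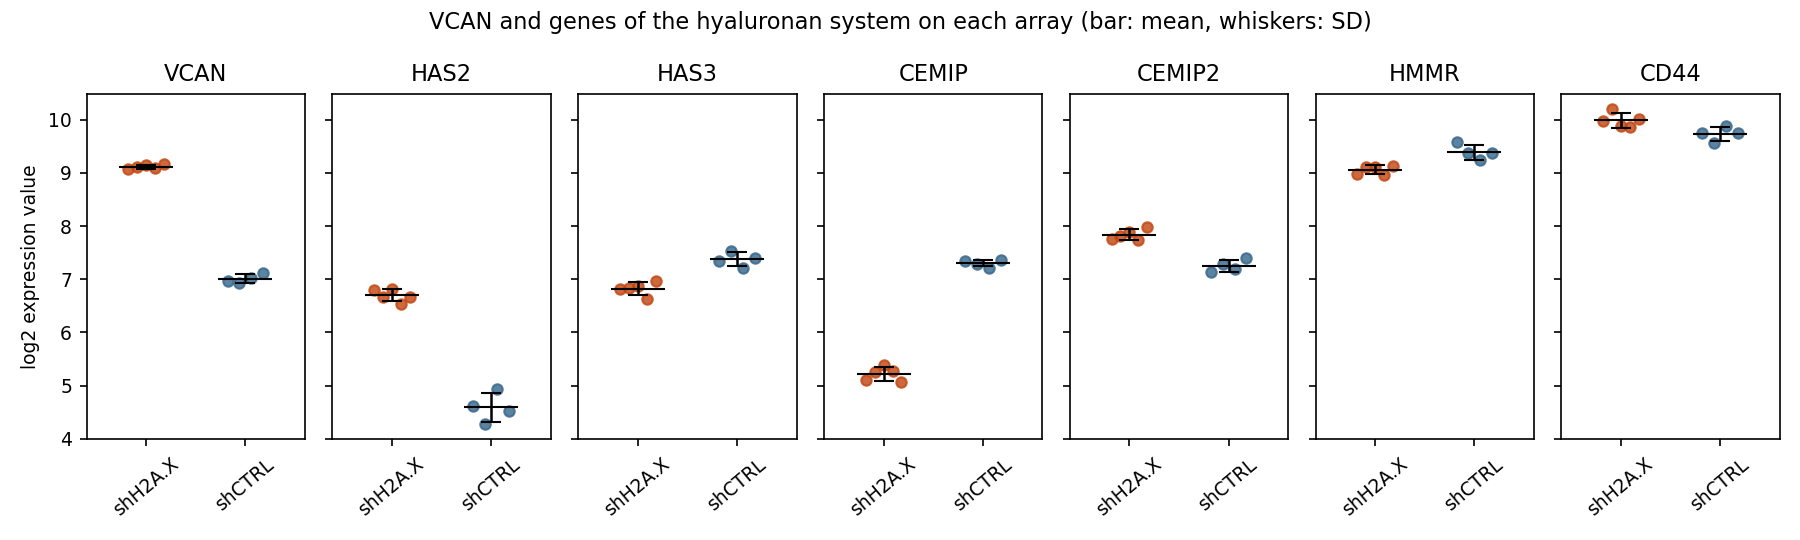
Log2 expression value (vertical axis) of VCAN and of 6 genes of the hyaluronan system on each of the 5 shH2A.X and 4 shCTRL arrays. Points are arrays, the bar is the mean and whiskers are the SD. HAS2 is higher in shH2A.X by 2.11 and CEMIP lower by 2.08, without overlap, whereas the CD44 points of the groups overlap.

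Versican carries chondroitin sulphate chains, and of 28 listed genes of chondroitin and dermatan sulphate synthesis 21 had a value. Of these, 9 rose (42.9%), 3 fell (14.3%) and 9 did not pass, with a median of 0.22. The largest rise was that of CHST14, the sulphotransferase of dermatan sulphate, with 7.05 to 7.61 in shH2A.X (median 7.54) against 6.25 to 6.77 in shCTRL cells and a log2 fold change of 0.87 (SE 0.13, limma adjusted p = 0.000594). It was followed by CHST11, a chondroitin sulphotransferase (0.66, SE 0.07), and PAPSS2, which makes the sulphate donor (0.61, SE 0.09). XYLT1, which adds the first sugar of the chain to the core protein, fell by 0.46 (SE 0.11, adjusted p = 0.00959), with shH2A.X array 2 at 6.11 inside the shCTRL range. DSE, the epimerase of dermatan sulphate, fell by 0.32 (SE 0.05). CHST13, another chondroitin sulphotransferase, fell by 0.17 (adjusted p = 0.0437), but in each fit that left out 1 array other than shH2A.X array 5 its adjusted p was 0.0516 to 0.109.

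Core proteins of other proteoglycans included 27 with a value of 34, of which 9 rose (33.3%), 1 fell (3.70%) and 17 did not pass (median 0.07). HSPG2, the basement membrane proteoglycan perlecan, was higher by 0.88 (SE 0.06, limma adjusted p = 9.12e-07). The cell surface glypican GPC3 was higher by 0.63 (SE 0.10) and GPC1 by 0.42 (SE 0.11), GPC1 with shH2A.X array 2 within the shCTRL range and a difference of 0.11 by its second probe set. GPC2, a glypican of developing neurons, fell by 0.34 (SE 0.09, adjusted p = 0.0201). Without shCTRL array 3 a second gene of this list fell. None of the 19 listed ADAMTS proteases, which include those that cleave versican, has a probe set named here, so versican cleavage enzymes were not analysed here.

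Of 18 listed genes that share the MAM domain with MAMDC2, 9 had a value, of which 3 rose (33.3%), 1 fell (11.1%) and 5 did not pass (median 0.18). NRP1, neuropilin 1, a co-receptor of VEGF and semaphorins, had 6.28, 6.53, 6.59, 6.52 and 6.58 in shH2A.X and 5.37, 5.06, 5.11 and 5.21 in shCTRL cells, a log2 fold change of 1.31 (SE 0.09, limma adjusted p = 7.98e-07). NPNT, nephronectin, a basement membrane ligand of integrins, was higher by 0.90 (SE 0.14, adjusted p = 0.000789). MDGA1, a lipid-anchored adhesion protein, was higher by 0.30 (adjusted p = 0.0274) and did not pass without shCTRL array 1 (0.0821), shCTRL array 2 (0.0503) or shH2A.X array 3 (0.0599). The fall of its relative MDGA2 by 0.20 lay below every array median and had an adjusted p of 0.0437, but 0.0659 to 0.116 when any array other than shH2A.X arrays 1 and 3 was left out. MAMDC4, the only other listed gene of the MAMDC name with a value, differed by 0.12 (adjusted p = 0.276).

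MCAM belongs to the adhesion molecules of the immunoglobulin superfamily, 36 of which had a value of 44 listed. Of these, 11 rose (30.6%), 2 fell (5.56%) and 23 did not pass, with a median of 0.00. CD58, the ligand of CD2 on T cells, had 7.69 to 7.98 in shH2A.X (median 7.81) and 6.62 to 6.80 in shCTRL cells, a log2 fold change of 1.12 (SE 0.07, limma adjusted p = 5.69e-07). CLMP, an epithelial junction protein, was higher by 0.85 (SE 0.06) and ALCAM, which like MCAM is known from melanoma, by 0.81 (SE 0.06). L1CAM, a neural adhesion molecule, and BCAM, a laminin receptor, were each higher by 0.60 (SE 0.09 and 0.06). MPZL2, an epithelial adhesion protein, fell by 0.91 (SE 0.08, adjusted p = 1.17e-05). NCAM1, the neural cell adhesion molecule, fell by 0.77 (SE 0.08), with all shH2A.X values below the array medians.

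Ligands and partners of MCAM were measured for 13 of 21 listed genes, of which 3 rose (23.1%), 1 fell (7.69%) and 9 did not pass (median 0.09). NRP1 is on this list as well. MSN and EZR encode the membrane-cytoskeleton linkers moesin and ezrin. MSN was higher by 0.29 (SE 0.05, limma adjusted p = 0.00211). EZR was higher by 0.17 with an adjusted p of 0.0499, which was 0.0545 to 0.129 when any array other than shCTRL array 1 was left out. The third linker, RDX (radixin), differed by -0.14 (adjusted p = 0.464). FZD3, a Wnt receptor, fell by 1.41 (SE 0.10, adjusted p = 1.43e-06), with 6.34 to 6.76 in shH2A.X (median 6.65) and 7.88 to 8.22 in shCTRL cells. The laminin chains LAMA4 and LAMC1, which MCAM binds, had no value here.

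Of 22 listed factors that are known to act on THBS1 transcription or mRNA, 13 had a value. Factors of both signs changed, 4 rising (30.8%) and 5 falling (38.5%), with a median of 0.04. EGR1, an immediate-early factor that activates THBS1 in other settings, read 7.32, 7.23, 7.65, 7.27 and 7.30 on the shH2A.X arrays and 9.81, 9.70, 9.73 and 9.72 on the shCTRL arrays, without overlap. It fell by 2.39 on the log2 scale (SE 0.08, limma adjusted p = 8.63e-09), with a log2 fold change -1.99 by its second probe set. MYC, which represses THBS1 in several tumour models, fell by 1.73 (SE 0.08, adjusted p = 5.99e-08), with 7.89 to 8.28 in shH2A.X and 9.74 to 9.81 in shCTRL cells. MIR17HG, the host of a microRNA cluster that MYC induces and that targets THBS1 mRNA, fell by 0.37 (SE 0.07) at values below every array median.

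JUN, a subunit of AP-1, was higher by 1.04 (SE 0.06, limma adjusted p = 2.68e-07). WWTR1, which encodes the TEAD co-activator TAZ, was higher by 0.90 (SE 0.07, adjusted p = 4.50e-06), whereas its paralogue YAP1 fell. The SMADs, which carry TGF-β signals, were split. SMAD2 was higher by 0.45 (SE 0.06) and SMAD4 also rose, whereas SMAD3 fell by 0.47 (SE 0.07, adjusted p = 0.000401).

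Genes beside the 4 loci were read next, taking the 3 nearest genes with a value on each side. Of these 24 genes 5 rose (20.8%), 2 fell (8.33%) and 17 did not pass, with a median log2 fold change of 0.12, against 12.2% and 10.7% of all genes. XRCC4, a DNA end-joining factor whose gene ends 97.3 kb before VCAN, had the largest change of these neighbours. It read 9.89, 9.79, 9.92, 9.91 and 9.88 on the shH2A.X arrays and 8.07, 8.35, 7.98 and 8.57 on the shCTRL arrays, without overlap (log2 fold change 1.64, SE 0.11, limma adjusted p = 8.27e-07). HAPLN1, on the other side of VCAN at 55.5 kb, differed by 0.09 (adjusted p = 0.410). TMEM167A, 394 kb from VCAN, was higher by 0.39 with an adjusted p of 0.0468, which was 0.0508 to 0.117 when any array other than shH2A.X arrays 1 and 5 was left out. Its 4 shCTRL values lay below the array medians. It did not pass by the equal-variance test (adjusted p = 0.119), nor in limma with weights for arrays (0.0542) or the replicate number as a block (0.0532). COX7C, a subunit of cytochrome c oxidase 3036 kb from VCAN, fell by 0.59 (SE 0.06, adjusted p = 1.70e-05).

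Beside THBS1, the homeobox gene MEIS2, 2480 kb away, was higher by 1.58 (SE 0.08, limma adjusted p = 6.78e-08), with 0.85 by a second, dimmer probe set. GPR176, an orphan receptor 200 kb away, was higher by 0.42 (SE 0.10, adjusted p = 0.00827). FSIP1 overlaps the end of THBS1 on the opposite strand. It had 4.72 to 5.01 in shH2A.X and 4.19 to 5.18 in shCTRL cells and did not pass (0.24, SE 0.16, adjusted p = 0.351). Without shCTRL array 1, its highest value, the difference was 0.41 with an adjusted p of 0.0425.

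The 6 neighbours of MAMDC2 did not pass in limma, and 3 of them had an unadjusted p under 0.05. None passed by the equal-variance test either. Its antisense gene MAMDC2-AS1 lies within the locus and differed by 0.20 (SE 0.08, limma adjusted p = 0.130) at values below every array median, and without shCTRL array 2 by 0.26 with an adjusted p of 0.0464. SMC5-DT, which overlaps the end of MAMDC2, differed by -0.03 (adjusted p = 0.917), and SMC5, a subunit of a chromosome maintenance complex, by 0.19 (adjusted p = 0.0666). Beside MCAM, RNF26 (a ubiquitin ligase gene 17.4 kb away) was higher by 0.31 (SE 0.05, adjusted p = 0.00167), with 0.11 by its second probe set and an adjusted p of 0.0902 when its probe sets were averaged. USP2, a deubiquitinase gene 38.1 kb from MCAM, fell by 0.31 (SE 0.07, adjusted p = 0.00878).

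**Figure D4:**
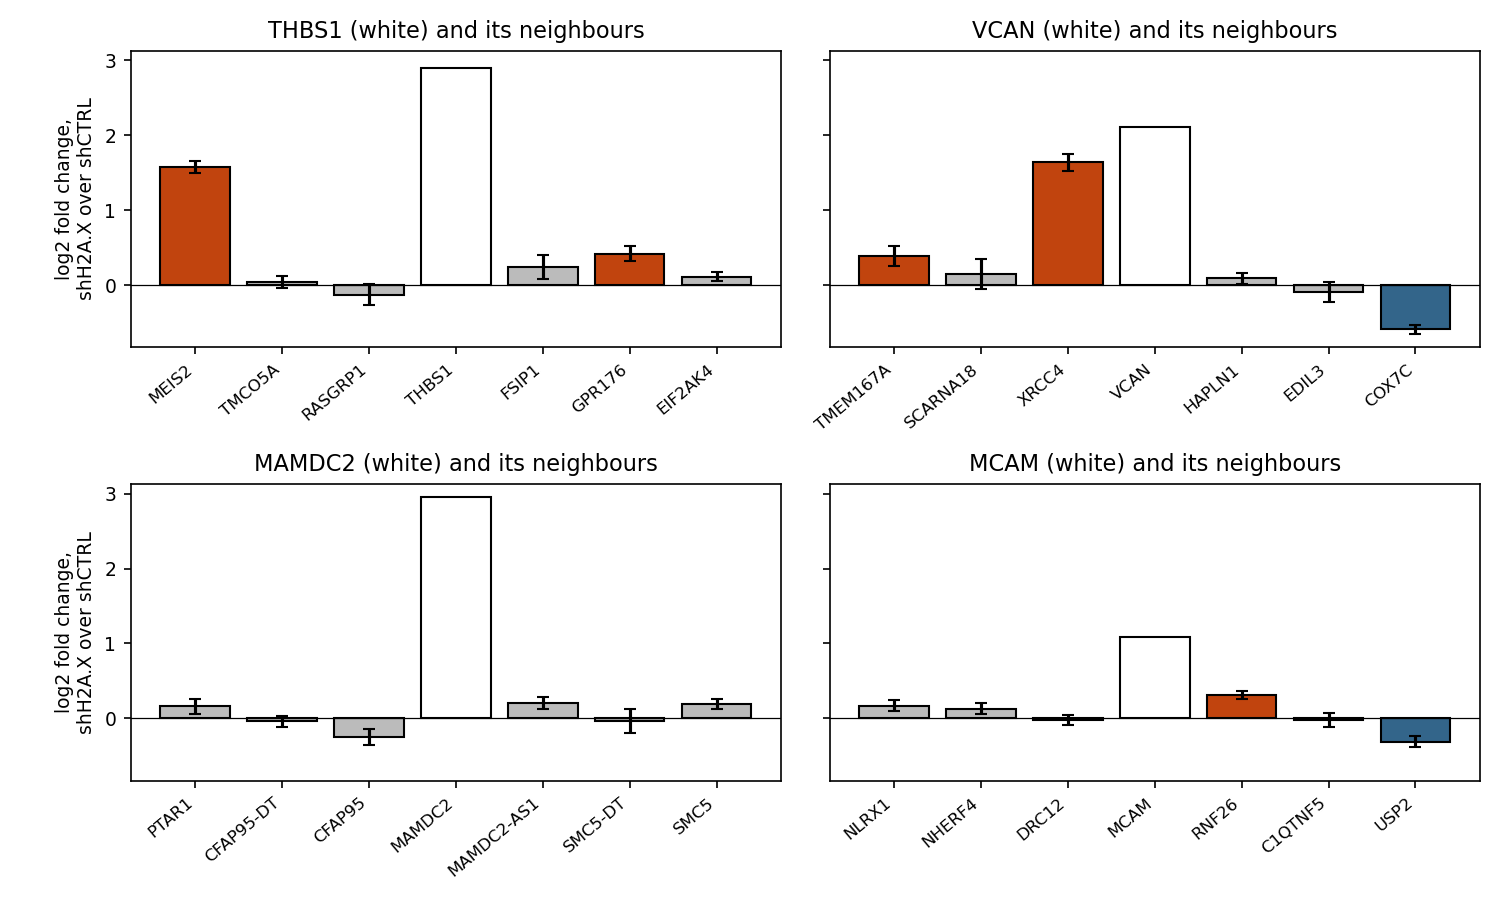
Log2 fold change of shH2A.X over shCTRL (vertical axis) for THBS1, VCAN, MAMDC2 and MCAM (white bars) and the 3 nearest measured genes on each side, in chromosome order and not to scale along the chromosome. Whiskers are the standard error of the limma fit, red bars rose, blue bars fell and grey bars did not pass. XRCC4 at 1.64 and MEIS2 at 1.58 are the tallest neighbours.

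The genes whose values ran closest to each of the 4 across the 9 arrays were found by the root mean square difference between 2 genes after each was centred on its shCTRL mean. The measure follows mainly the size of the difference between the groups, which chose the 4 genes, and is given as a description. Closest to THBS1 were HMCN1 (0.150), MAMDC2 (0.167) and KRT13, a keratin of stratified epithelium (0.277), against a median of 2.16 over all genes. Closest to MAMDC2 were THBS1 (0.167), HMCN1 (0.216) and the tetraspanin-like gene TM4SF18 (0.288), against a median of 2.20. VCAN ran closest to DCLK1, a microtubule-associated kinase (0.136), IGFBP6, which binds insulin-like growth factor (0.150), and HAS2 (0.169), against a median of 1.58. MCAM ran closest to TIMP2, a metalloproteinase inhibitor (0.0717), RRBP1, a ribosome receptor of the endoplasmic reticulum (0.0789), and MLPH, an adaptor of melanosome transport (0.0864), against a median of 0.822. HMCN1, TM4SF18 and DCLK1 lay below the medians of all shCTRL arrays, and KRT13 below those of 3. The size of the differences of these genes is therefore uncertain.

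Several of the 4 genes are typical of cells other than carcinoma cells, so markers of such cells were read as well. In a culture, a change in the share of cells and a change in RNA per cell cannot be told apart. Of 12 markers of colon epithelium 9 had a value. KRT20 rose by 1.00 and KRT19 by 0.64, EPCAM fell by 0.67, and 6 did not pass. EPCAM stayed at 10.15 to 10.26 in shH2A.X, against 10.83 to 10.94 in shCTRL cells, and the summed log2 values of the 9 were 65.24 to 65.96 in shH2A.X and 63.89 to 64.83 in shCTRL cells. CDH1, the gene of E-cadherin, is also on this list and either had no value or did not pass. The paper reports lower CDH1 expression in shH2A.X cells by real-time PCR, so the sum is no measure of epithelial character.

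Fibroblast markers had a value for 4 of 11, none of which passed (log2 fold changes of -0.17 to -0.09, and 1 lower at an unadjusted p under 0.05), with sums of 14.58 to 15.21 in shH2A.X and 15.29 to 15.67 in shCTRL cells. Endothelial markers had a value for 7 of 10 and summed to 31.10 to 32.01 in shH2A.X and 29.85 to 31.00 in shCTRL cells. Of these 3 were higher at an unadjusted p under 0.05, and ESAM alone passed, higher by 0.32 (limma adjusted p = 0.0278), and without shCTRL array 1, 2 or 4 or shH2A.X array 1 its adjusted p was 0.0502 to 0.0684. Melanocyte markers had a value for 5 of 6 and summed to 21.90 to 22.38 in shH2A.X and 22.39 to 22.71 in shCTRL cells. PMEL fell by 0.40 (adjusted p = 0.0305, and 0.0513 to 0.0914 without shCTRL array 1 or 2 or shH2A.X array 1, 2 or 5).

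Leukocyte markers had a value for 4 of 9 and summed to 22.04 to 22.94 in shH2A.X and 18.93 to 19.88 in shCTRL cells. LYZ, lysozyme, rose by 2.67 (SE 0.12, limma adjusted p = 4.65e-08), with all shCTRL values below the array medians and 0.88 by a second probe set. The lysosomal CD68 rose by 0.90 (SE 0.07), NCAM1 fell, and CD14 did not pass. The common leukocyte antigen PTPRC had no value here. The part of these markers in the levels of THBS1, VCAN, MAMDC2 and MCAM was not tested.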

How the data were processed

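The values used are log2 expression values of 53617 probe sets, deposited by the authors as a table normalized between arrays. According to the methods and the submitters' processing notes, the authors used Affymetrix Expression Console for CHP files and normalized the arrays in Partek 6.6. For the background correction and the normalization, no method is named in these sources. Array medians were 4.54 to 4.577. Across all probe sets, arrays correlated at 0.9899 to 0.9919 within groups and 0.9849 to 0.9865 between groups. The table holds no detection calls, and the number of arrays limits the precision.

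A single gene symbol from the platform annotation was available for 16098 probe sets, and 37519 are unnamed here. Each of 14884 genes was taken by the probe set that had its highest mean (779 genes had several). Fold changes of shH2A.X over shCTRL, standard errors and p-values were computed in R 4.3.3 with lmFit and eBayes of limma 3.58.1 (group as the only term), and p-values were adjusted by the Benjamini-Hochberg method over all 14884 genes. No value was given for a set of genes beyond counts and medians.

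THBS1, VCAN, MAMDC2 and MCAM, the lists and the tests were chosen with earlier results of these data known. The genes named are these 4, family members and regulators listed by hand, the 3 largest rises and 3 largest falls that passed in each list, the neighbours, the 3 genes closest to each of the 4, and markers where 5 or fewer were counted. SDC1, CALR, YAP1, SMAD4 and CD14 were named to complete counts of 5 or fewer, after their values had been seen. CDH1 was named because the paper reports its level. Promoters and positions are from RefSeq (GRCh38.p14), where all 4 genes matched.

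Alternatives were quantile normalization, array median centring, averaging the probe sets of a gene, each other probe set, a filter on dim genes (mean above 4.56, leaving 10563 genes), an equal-variance test in place of limma, a robust prior with mean-variance trend, weights for arrays, the replicate number as a block and leaving out each array.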

Additional observations from a re-analysis of the deposited data

Results flagged for a closer look

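Of 194 sets of values examined (each named gene in each group), 9 held an array that stood apart from the rest of its group by Dixon's criterion, which chance meets in about 1 in 20. None of them was a value of THBS1, VCAN, MAMDC2 or MCAM.

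In shH2A.X cells, EGR1 on array 3 read 7.65, against 7.23 to 7.32 on the other arrays of that group. DCLK1 on shH2A.X array 2 read 6.69, against 6.26 to 6.37. SIRPA on the same array read 8.19, against 7.95 to 8.02. NRP1 on shH2A.X array 1 read 6.28, against 6.52 to 6.59. NHERF4, a neighbour of MCAM that did not pass, read 4.73 on shH2A.X array 3, against 4.91 to 4.98. TMEM167A on shH2A.X array 5 read 5.29, against 4.64 to 4.69.

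In shCTRL cells, TMEM167A on array 3 read 4.27, against 4.43 to 4.45 on the other arrays. ALCAM on shCTRL array 4 read 8.12, against 7.97 to 7.99. EIF2AK4, a neighbour of THBS1 that did not pass, read 8.65 on shCTRL array 4, against 8.52 to 8.53.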

How the results depend on the processing

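The differences of the 4 genes moved little with the array left out, from 2.82 to 2.94 for THBS1, 2.09 to 2.15 for VCAN, 2.87 to 3.06 for MAMDC2 and 1.04 to 1.13 for MCAM. For VCAN the mean of all probe sets gave 1.91 and the other probe set 1.70. With 1 array left out, 1532 to 1680 of all genes rose and 1326 to 1505 fell, 42 to 45 of the related genes rose and 15 to 17 fell, and 4 to 5 of the neighbours rose and 2 fell. No source says whether same-numbered arrays of the 2 groups shared more than a number. Their deviations from the group means correlated at -0.00423, 0.024, -0.0683 and -0.0855. These correlations were taken over all genes and cannot decide the question. With the replicate block 1270 genes rose and 1074 fell, 37 and 13 of the related genes rose and fell, and 1 neighbour fell in place of 2, since USP2 no longer passed (adjusted p = 0.0523). Under the block 5 proteoglycan core proteins rose in place of 9 and none fell in place of 1, and 1 gene of chondroitin and dermatan sulphate synthesis fell in place of 3. Of 92 named genes other than the 4, 76 kept their side of the threshold under each setting in which they had a value and 16 did not. No gene turned from a rise that passed to a fall that passed, or the reverse. A small difference that did not pass could change sign with an array left out. There were 17 settings, and 12 of the 92 genes were too dim to have a value under the filter on dim genes. With that filter or the trend, 2 receptors and partners of thrombospondin 1 fell in place of 1. SMC5 passed with the filter on dim genes (adjusted p = 0.0402) and with the trend (0.0137), and so did CD44 (0.0411 and 0.0148). GPC2 did not pass by the equal-variance test (0.0526), nor GPC1 with averaged probe sets (0.0715). The cause of these changes was not tested. The size of a change of dim genes is uncertain, since no background level is given.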
